A study of Homo sapiens with 40 samples.

Results

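The comparison described here is the difference between the responses of MDA-MB-231 cells to a short, high and to a long, low exposure to zoledronate. It was formed as the effect of 100 µM zoledronate for 24 h minus the effect of 30 µM for 48 h, each effect being taken against solvent-treated cells of the same time point. Its members are all 16 arrays of lot II, out of 40 in the series: 4 of cells given 100 µM zoledronate for 24 h, 4 of their 24 h controls, 4 of cells given 30 µM zoledronate for 48 h, and 4 of their 48 h controls. MDA-MB-231 is an established line of breast cancer cells with mesenchymal, basal-like features, and all groups were grown in DMEM with serum. The arrays (Affymetrix Human Gene 1.0 ST) measured total RNA, and every value below is a log2 RMA signal or a difference of such signals. Per the design text, replicates were independent, and each treated culture had a solvent control measured on the same day. Dose and time both differ between the exposures, and their parts in any difference cannot be told apart. In a bulk RNA sample, fewer cells of a type and less RNA per cell cannot be told apart either.

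Zoledronate is a nitrogen-containing bisphosphonate, used clinically against bone loss and bone metastases. It blocks farnesyl diphosphate synthase (FDPS), an enzyme of the mevalonate pathway that supplies both cholesterol synthesis and the isoprenoid lipids attached to many small GTPases. Without these lipids the GTPases do not anchor in membranes. The tension of the actin skeleton supports the transcription coactivators YAP and TAZ, which act through TEAD factors.

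The 10 measured markers of a mesenchymal, basal-like line had a median level between 10.14 and 10.25 in the 100 µM arrays and between 10.65 and 10.83 in the 24 h controls. Their median lay between 10.28 and 10.66 in the 30 µM arrays and between 10.65 and 10.87 in the 48 h controls. The 11 blood cell markers were dim, with medians of 5.09 to 5.28 at 100 µM, 4.54 to 5.03 in the 24 h controls, 4.80 to 5.20 at 30 µM and 4.87 to 5.02 in the 48 h controls. The 13 fibroblast and endothelial markers had medians of 6.11 to 6.45, 5.91 to 6.03, 5.97 to 6.36 and 5.81 to 6.08 in the same order. These medians do not hold for each marker: CD68, a lysosomal protein listed for blood cells, averaged 10.4 at 100 µM, 9.84 in the 24 h controls, 10.3 at 30 µM and 10.1 in the 48 h controls. The 30 µM, 48 h array of replicate 2 stood apart in cell cycle genes. The mitotic cyclin gene CCNB1 read 11.31, 10.03, 11.01 and 11.18 in the 30 µM arrays and 11.63, 11.39, 11.29 and 11.36 in the 48 h controls. The difference of this pair had an SD over genes of 0.372, against 0.243 to 0.263 for the other 48 h pairs. Many results that rest on this pair are given with and without it. The 48 h control of replicate 1 also lay apart from the other 48 h controls in some genes given below, DDIT4, VLDLR, TSC22D3 and IL24.

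A gene was called where its Benjamini-Hochberg adjusted p, over 18417 genes and two-sided, lay under 0.05 in a limma fit. The 100 µM, 24 h exposure changed 5888 genes (32.0% of all tested), of which 2826 rose (15.3%) and 3062 fell (16.6%). The 30 µM, 48 h exposure changed 1397 (7.59%), with 582 higher (3.16%) and 815 lower (4.43%). The difference between the effects passed in 1515 genes (8.23%): it was positive in 720 (3.91%) and negative in 795 (4.32%). These shares are the background for the counts of every list below. Called differences reached 2-fold in 40 genes upward and 75 downward. The SD of the fitted effects over genes was 0.333 at 100 µM and 0.176 at 30 µM, and the median standard error of a difference was 0.133. Without the pairing by replicate, which the design text states, the difference passed in 225 genes upward and 289 downward and the 48 h effect in 349. Without 48 h replicate 2 the difference passed in 1299 and 1401 genes.

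Most of what the 48 h exposure changed was also changed at 100 µM. Both effects passed in the same direction in 1157 genes (6.28% of all tested), which is 82.8% of the 48 h calls and 19.7% of the 100 µM calls. Of these shared genes 492 rose and 665 fell. The difference did not pass in 862 of them. It passed in the other 295, where the 100 µM effect was the larger in 137 of 138 risers and 156 of 157 fallers. The median shared riser changed by 0.63 at 100 µM and by 0.38 at 48 h, and the median shared faller by −0.49 and −0.32. A further 1164 genes (6.32%) passed at 100 µM and in the difference but not at 48 h. In the other direction 31 genes (0.168%) passed at 48 h and in the difference but not at 100 µM, and 4 genes (0.0217%) passed in both with opposite signs. Without 48 h replicate 2 these were 206 and 42, beside 1138 shared genes and 1657 calls at 48 h. Without 48 h replicate 1 the shared genes numbered 405 and the 48 h calls 485, and without replicate 3 they numbered 770 and 911. Across all genes the effects of the exposures had a Pearson correlation of 0.65, or 0.50 without 48 h replicate 2. The likeness varied between the 48 h pairs. Taken singly, their correlation with the 100 µM effect was 0.602, 0.479, 0.328 and 0.163 in replicates 1 to 4. The effects of the exposures use different control arrays, and genes are not independent replicates.

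**Figure D1:**
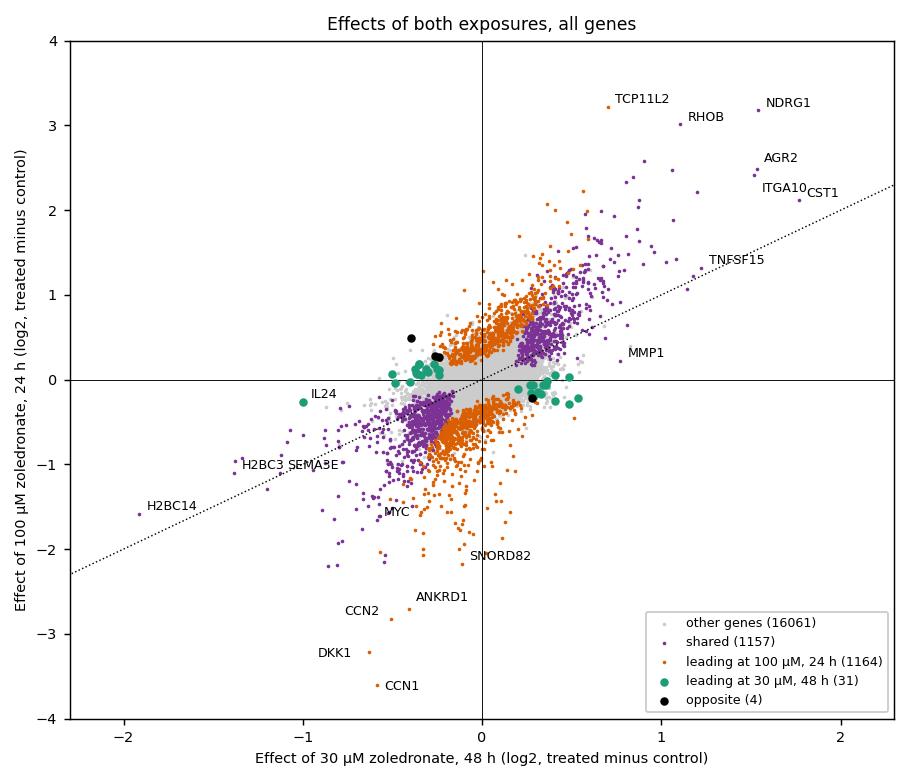
Fitted effect of 100 µM zoledronate for 24 h (vertical axis, log2) against that of 30 µM for 48 h (horizontal axis, log2), 1 point per gene, with equal effects on the dotted line. Grey points are all other genes, orange points passed at 100 µM and in the difference but not at 48 h, purple points passed in both with 1 sign, green points passed at 48 h and in the difference only, and black points passed with opposite signs. Shared genes lie mostly steeper than the dotted line, and the 31 genes that led at 48 h lie close to the horizontal axis.

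CST1 rose in both exposures without a called difference. CST1, an inhibitor of cysteine proteases, read 9.97, 10.95, 10.83 and 11.47 in the 100 µM arrays, against 8.53, 8.10, 8.64 and 9.50 in the 24 h controls. It read 10.71, 11.80, 11.93 and 11.67 in the 30 µM arrays and 8.22, 9.57, 10.44 and 10.79 in the 48 h controls. At 100 µM every treated array exceeded every control, while at 48 h the lowest treated array lay below the highest control. The effects were 2.12 ± 0.29 (standard error) at 100 µM and 1.77 ± 0.29 at 48 h, with adjusted p of 3.17e-06 and 0.00065. Their difference was 0.35 with a 95% interval from −0.49 to 1.18 (adjusted p = 0.716). Without the pairing the 48 h effect of CST1 did not pass (adjusted p = 0.179). Standard errors given with ±, here and below, come from residuals pooled over all 40 arrays. They are the same for both exposures and do not measure the spread of either.

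TNFSF15, a cytokine of the TNF family, read 6.98, 6.91, 6.65 and 6.66 in the 100 µM arrays and 5.53, 5.23, 5.37 and 5.79 in the 24 h controls. At 48 h it read 6.76, 7.14, 7.42 and 6.89 with 30 µM and 5.76, 5.59, 5.85 and 6.12 in controls. Treated and control arrays did not overlap in either exposure, and the effects were 1.32 and 1.22, with a difference of 0.10 (interval −0.44 to 0.63). AGR2, a protein disulfide isomerase of secretory epithelia, rose by 2.49 and 1.53, and its difference of 0.96 passed only where 48 h replicate 2 was left out (1.47, adjusted p = 0.00494) or where arrays were weighted by their quality. ITGA10, a collagen-binding integrin subunit, rose by 2.41 and 1.52, with a difference of 0.89 at an adjusted p of 0.051. This difference passed under 5 of the 8 other fits over all 4 replicates, as given with the limits. GALNT5, an enzyme that starts O-linked sugar chains, rose by 2.21 and 1.2, and here the difference of 1.01 passed (adjusted p = 0.0142), though not without 100 µM replicate 2 or without 48 h replicate 3 or 4.

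SEMA3E, a secreted guidance protein of the class 3 semaphorins, fell in both exposures. It read 5.05, 5.10, 5.02 and 5.11 in the 100 µM arrays, against 5.82, 6.24, 6.32 and 6.29 in the 24 h controls. It read 5.41, 5.76, 5.77 and 5.87 in the 30 µM arrays, against 6.72, 6.73, 7.03 and 6.83 in the 48 h controls. No treated array reached a control of its own time point. The effects were −1.1 ± 0.11 and −1.13 ± 0.11, and the difference of 0.03 had an interval from −0.29 to 0.35. The level was lower in the 100 µM arrays than in the 30 µM arrays, as it was in the 24 h controls than in the 48 h controls. In the list of 14 class 3 semaphorins and receptors, 6 rose and 1 fell at 100 µM, 3 rose and 1 fell at 48 h, and 1 difference passed, that of the receptor PLXNA2 (0.80, adjusted p = 0.0121). It did not pass without the pairing (adjusted p = 0.405) or with lot II alone.

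Replication-dependent histone genes, which are transcribed in S phase to package new DNA, fell in both exposures. Of 57 measured, 39 fell and none rose at 100 µM, 34 fell and none rose at 48 h, and 33 were shared. The difference passed in none of the 57, with a median of 0.06. The median effects were −0.47 and −0.52. Without the pairing 26 fell at 48 h. These probe sets belong to near-identical genes, so that signal of 1 member can include that of others. H2BC14, an H2B gene of the cluster on chromosome 6, read 8.96, 8.57, 8.49 and 8.42 in the 100 µM arrays, against 10.25, 10.15, 10.11 and 10.26 in the 24 h controls. At 48 h it read 8.64, 7.67, 8.89 and 8.86 with 30 µM, against 10.21, 10.67, 10.33 and 10.49 in controls. The groups were well apart at both times, and replicate 2 was the lowest 30 µM array. The effects were −1.58 and −1.91, and without 48 h replicate 2 the second was −1.55 (adjusted p = 7.91e-07), leaving a difference of −0.04.

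The histone list showed that pair plainly. Its median was −0.93 in 48 h replicate 2 and −0.35, −0.35 and −0.30 in replicates 1, 3 and 4. Without replicate 2, 25 histone genes fell at 48 h and the difference passed in 1 of 57 genes, downward. H4C2 fell by 1.07 at 100 µM and by 0.95 at 48 h, or by 0.66 at 48 h without that pair. H2BC3 fell by 1.1 and 1.38, or by 0.90 at 48 h without it. H3C12 fell by 1.30 and 1.2, or by 0.76 at 48 h without it (adjusted p = 0.00253). The calls for H2BC14, H4C2 and H2BC3 at 48 h held without the pair, with adjusted p of 7.91e-07, 0.000774 and 0.00115.

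The promoters of these genes carry known elements, and 2 are shown because their genes fell so far in both exposures. They are the 250 bases before the annotated start, from RefSeq on GRCh38.p14, and capitals mark the histone octamer ATTTGCAT and the box CCAAT, on either strand. The window of H2BC14 is chr6:27814772-27815021 on the plus strand and that of H2BC3 is chr6:26043714-26043963 on the minus strand.
H2BC14: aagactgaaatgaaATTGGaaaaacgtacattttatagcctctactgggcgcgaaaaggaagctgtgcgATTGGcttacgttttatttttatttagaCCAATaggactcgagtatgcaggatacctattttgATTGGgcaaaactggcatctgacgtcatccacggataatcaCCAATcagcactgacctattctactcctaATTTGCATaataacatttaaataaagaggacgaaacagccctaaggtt
H2BC3: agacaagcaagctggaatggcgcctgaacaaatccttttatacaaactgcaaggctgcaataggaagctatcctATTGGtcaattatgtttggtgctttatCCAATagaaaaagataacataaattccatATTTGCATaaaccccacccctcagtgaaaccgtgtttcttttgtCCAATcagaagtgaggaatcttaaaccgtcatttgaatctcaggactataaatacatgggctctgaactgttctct
Of 52 histone genes with a window, 44.2% held the octamer on either strand and 84.6% held CCAAT, against 1.7% and 33% of all 27305 windows. Among all shared genes that fell, 3.8% of 557 windows held the octamer. That class includes 33 of the listed histone genes, so the shares are not separate. These are matches of letters, not sites of binding.

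**Figure D2:**
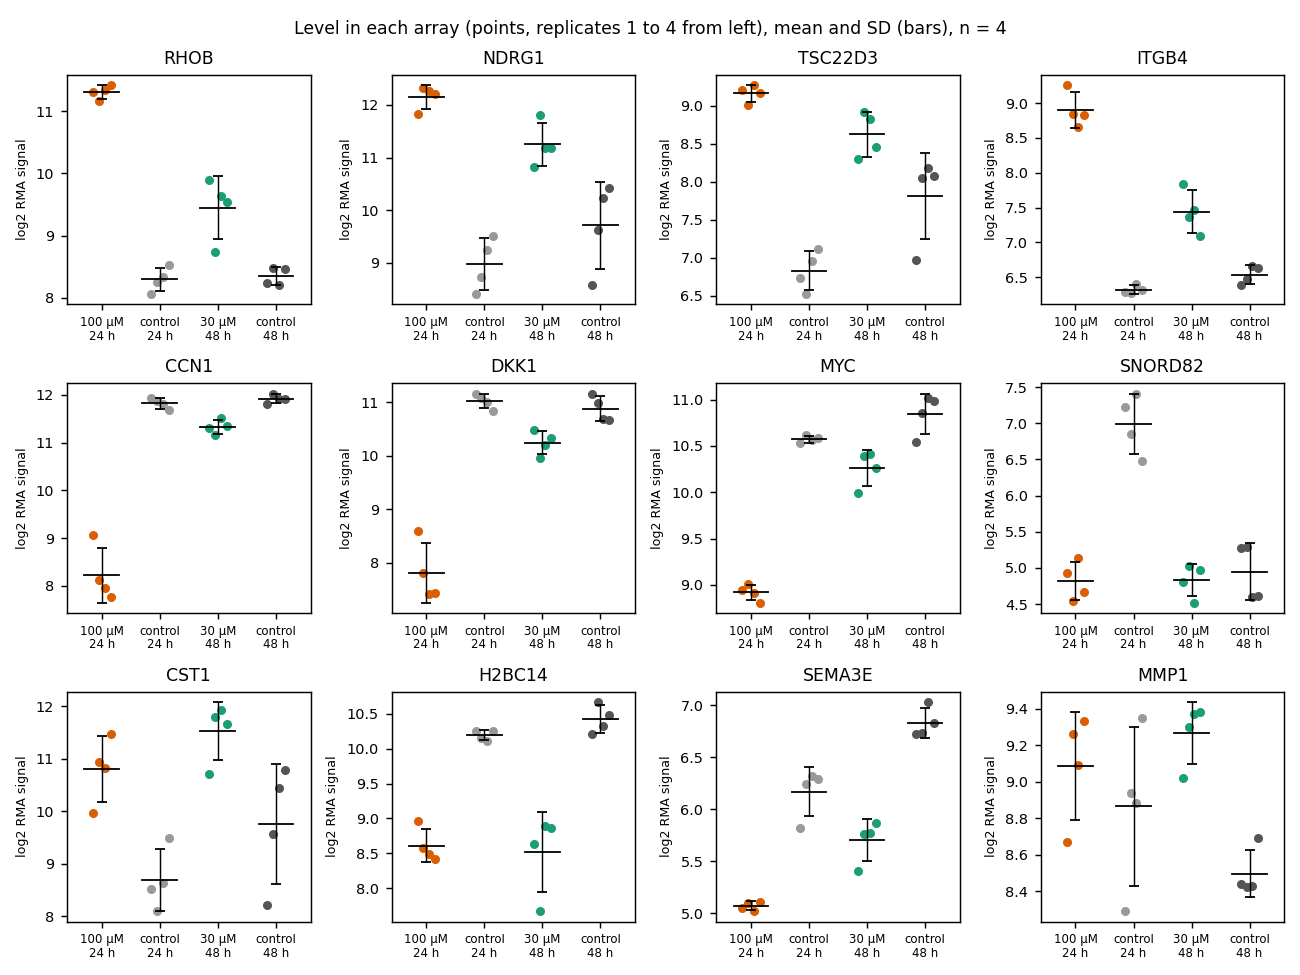
Level of 12 genes (log2 RMA signal, vertical axes) in every array, with 100 µM at 24 h left of its control and 30 µM at 48 h left of its control; points are replicates 1 to 4 from left, and bars give the mean and SD of 4 arrays. CCN1 and DKK1 are lowest in the 100 µM arrays, with the 30 µM arrays below their controls by less, SEMA3E and H2BC14 are low in both treated groups, and SNORD82 is high in the 24 h controls alone.

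The 4 most negative differences were those of CCN1, DKK1, CCN2 and ANKRD1, all listed targets of YAP and TAZ. That list was written with earlier results of these data known, so that their place in it is no independent support. CCN1, a secreted matrix protein, read 9.06, 8.12, 7.95 and 7.77 in the 100 µM arrays, against 11.94, 11.88, 11.81 and 11.68 in the 24 h controls. In the 30 µM arrays it read 11.31, 11.16, 11.52 and 11.34, against 11.81, 12.03, 11.92 and 11.92 in the 48 h controls. The 100 µM arrays lay far below all others. All 30 µM arrays lay below all 48 h controls, by less. The effect was −3.60 ± 0.24 at 100 µM (adjusted p = 1.69e-10) and −0.59 ± 0.24 at 48 h (adjusted p = 0.144). The standard error is shared by both exposures, so the missed call at 48 h does not show that CCN1 was unchanged there. The difference was −3.01 with an interval from −3.72 to −2.31 (adjusted p = 1.65e-05).

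CCN2, a relative of CCN1, changed by −2.82 at 100 µM and −0.51 at 48 h (adjusted p = 0.135). ANKRD1, a nuclear ankyrin protein, changed by −2.70 and −0.41 (adjusted p = 0.226 at 48 h). Both differences passed, at −2.32 and −2.29. DKK1, a secreted inhibitor of Wnt signalling that acts on bone-forming cells, read 8.60, 7.80, 7.41 and 7.43 in the 100 µM arrays and 11.16, 11.08, 11.01 and 10.84 in the 24 h controls. At 48 h it read 10.48, 9.96, 10.20 and 10.33 with 30 µM and 11.15, 10.98, 10.69 and 10.67 in controls. All 30 µM arrays lay below all 48 h controls, yet the 48 h effect of −0.63 missed the threshold (adjusted p = 0.0672). The 100 µM effect was −3.21, and the difference of −2.58 passed (adjusted p = 1.89e-05). The differences of CCN1, CCN2, ANKRD1 and DKK1 passed under all 16 alternative fits.

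Of the 28 genes in the YAP and TAZ list, 21 fell and 1 rose at 100 µM, 10 fell and none rose at 48 h, and 16 had a lower difference and none a higher one. Their median effects were −0.85 and −0.31, against 0.01 and 0.01 over all genes. Without the pairing, 12 had a lower difference and 3 fell at 48 h. EDN1, the vasoconstrictor peptide endothelin, fell in both exposures, by 1.93 and 0.81, with a difference of −1.12 (adjusted p = 0.00221). F3, the coagulation starter tissue factor, fell by 1.76 and 0.67 (difference −1.09, adjusted p = 0.00162). AMOTL2, a junction protein that binds YAP, fell by 1.60 at 100 µM, and at 48 h its effect was −0.35 (adjusted p = 0.231). NT5E, a surface nucleotidase, was the riser, at 0.46. TEAD1, a DNA-binding partner of YAP, did not pass in either exposure. In the list of 23 actin and SRF genes, 12 fell and 3 rose at 100 µM, 2 fell at 48 h, and the difference passed in 4 downward, or 8 without 48 h replicate 2, and 1 upward. CALD1, an actin-binding regulator of contraction, fell by 1.19 and 0.74, and the difference of −0.45 passed (adjusted p = 0.02), though not without the pairing (adjusted p = 0.202).

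The promoters of CCN2 and ANKRD1 are shown because their genes had among the largest negative differences and because TEAD sites are known in both. Capitals mark GGAATG, a core of the TEAD site. The CCN2 window is chr6:131951373-131951622 and the ANKRD1 window chr10:90921088-90921337, both on the minus strand.
CCN2: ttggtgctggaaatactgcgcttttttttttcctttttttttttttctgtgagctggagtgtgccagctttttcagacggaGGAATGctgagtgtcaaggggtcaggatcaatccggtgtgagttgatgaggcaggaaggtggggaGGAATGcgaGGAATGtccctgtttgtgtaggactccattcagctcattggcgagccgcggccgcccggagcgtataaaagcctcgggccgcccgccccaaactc
ANKRD1: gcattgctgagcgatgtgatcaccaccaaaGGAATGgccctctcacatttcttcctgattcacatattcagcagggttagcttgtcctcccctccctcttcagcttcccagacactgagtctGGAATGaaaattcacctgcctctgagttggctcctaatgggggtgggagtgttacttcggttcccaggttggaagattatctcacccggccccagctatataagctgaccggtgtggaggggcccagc
Of 19 listed targets with a window, 31.6% held GGAATG on either strand, against 11.9% of all windows. Among all genes that fell and led at 100 µM the share was 7.8% of 450 windows.

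RHOB had the second highest difference of all genes. It encodes a prenylated small GTPase of endosomes, and it read 11.30, 11.16, 11.34 and 11.42 in the 100 µM arrays and 8.06, 8.26, 8.34 and 8.52 in the 24 h controls. It read 9.90, 8.73, 9.63 and 9.54 with 30 µM at 48 h and 8.23, 8.48, 8.21 and 8.47 in the 48 h controls. All treated arrays exceeded their controls, with replicate 2 the lowest at 48 h. RHOB rose by 3.01 ± 0.21 and 1.11 ± 0.21, and the difference was 1.91 with an interval from 1.28 to 2.53 (adjusted p = 0.00037). It passed under all 16 alternatives, and without 48 h replicate 2 it was 1.62. The pooled standard error does not show that the treated arrays were spread unequally. They ran from 8.73 to 9.90 at 30 µM and from 11.16 to 11.42 at 100 µM.

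Krüppel-like factors, zinc finger proteins of which KLF2 is known to rise in endothelial cells treated with statins, moved mostly upward. Of 14, 7 rose and 3 fell at 100 µM, 5 rose and none fell at 48 h, and the difference was higher in 5 and lower in 1. KLF3 rose by 1.79 and 0.58, and the difference of 1.21 passed (adjusted p = 7.61e-05). KLF2 itself rose by 1.17 and 0.67. Its values were 10.15, 10.13, 10.15 and 10.12 at 100 µM, against 9.04, 8.95, 9.03 and 8.86 in the 24 h controls. With 30 µM at 48 h it read 9.81, 9.19, 9.87 and 9.80, against 8.87, 9.07, 9.03 and 9.0 in the 48 h controls. Replicate 2 was the lowest treated array at 48 h. The KLF2 difference of 0.49 did not pass (adjusted p = 0.0601), and without that replicate it was 0.31 (adjusted p = 0.172).

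**Figure D3:**
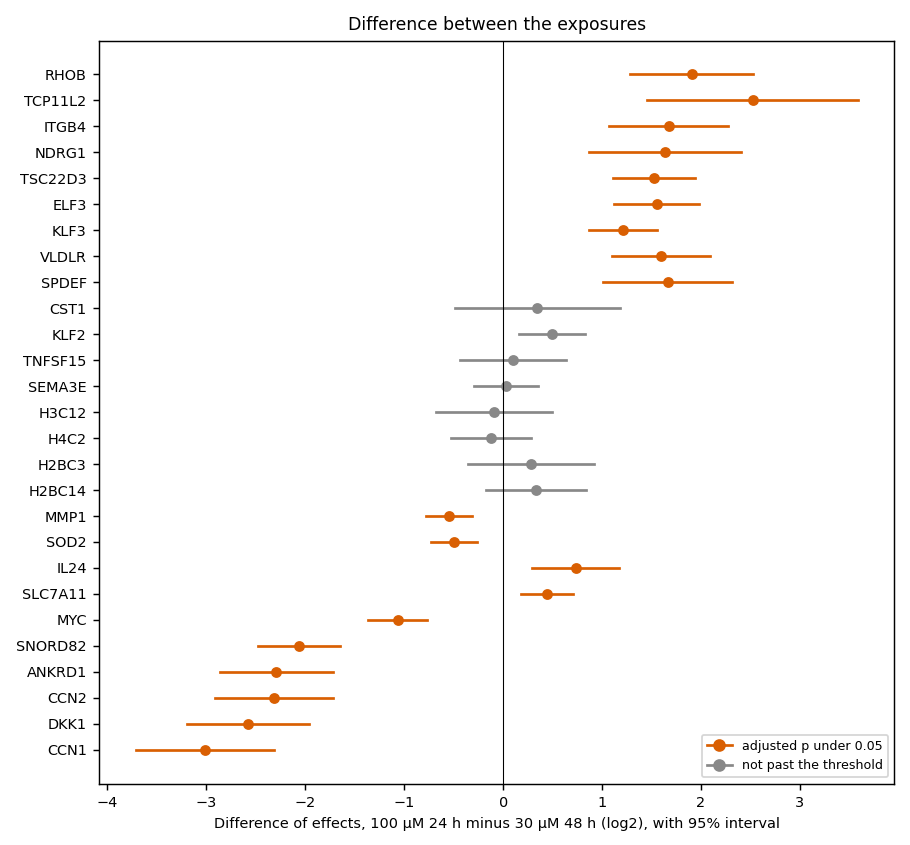
Difference of effects, 100 µM at 24 h minus 30 µM at 48 h (log2, horizontal axis), with its 95% interval, for 27 genes; orange marks an adjusted p under 0.05. RHOB, NDRG1 and TSC22D3 lie right of 0, CCN1, DKK1 and SNORD82 lie left of it, and the intervals of SEMA3E, TNFSF15 and the histone genes include 0.

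Hypoxia-responsive and glycolytic genes mostly rose at 100 µM. Of 30, 25 rose and 1 fell at 100 µM, 15 rose and none fell at 48 h, and 19 had a higher difference and none a lower one. The medians were 0.87 at 100 µM, 0.28 at 48 h and 0.52 for the difference. Without the pairing, 14 had a higher difference and 8 rose at 48 h. NDRG1, a cytoplasmic protein induced by low oxygen and by iron loss, read 11.82, 12.32, 12.27 and 12.20 in the 100 µM arrays and 8.41, 8.74, 9.24 and 9.51 in the 24 h controls. It read 10.83, 11.81, 11.19 and 11.18 with 30 µM at 48 h and 8.58, 9.63, 10.23 and 10.42 in the 48 h controls. All treated arrays exceeded all controls of their time, and the controls were widely spread at both times. NDRG1 rose by 3.18 and 1.54, and its difference of 1.64 passed (interval 0.87 to 2.41, adjusted p = 0.00752).

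BHLHE40, a repressor of clock and hypoxia circuits, rose by 2.47 and 1.06. P4HA1, which hydroxylates collagen, rose by 1.52 and 0.42, and PDK1, which diverts pyruvate from mitochondria, by 1.28 and 0.36. BNIP3, a mitophagy receptor, rose by 1.30 and 0.49, and PFKFB4, an enzyme that tunes glycolytic flux, by 1.67 and 0.62. All these differences passed. SLC2A3, a glucose transporter, rose by 1.63 and 0.65 (difference 0.98, adjusted p = 0.0199), while SLC2A1 did not pass in either exposure. VEGFA, the endothelial growth factor, rose by 0.93 at 100 µM and was at 0.41 at 48 h, and its difference of 0.52 did not pass (adjusted p = 0.186). ADM, the peptide adrenomedullin, was the member that fell at 100 µM, by 0.29.

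Promoters of P4HA1 and BNIP3 are shown because they hold the motif, while the window of PDK1, which moved with them, held 0 matches. Capitals mark ACGTG, the core of a hypoxia response element, on either strand. In BNIP3 the matches of both strands overlap in an E-box, CACGTG. The windows are chr10:73096867-73097116 for P4HA1 and chr10:131981924-131982173 for BNIP3, both on the minus strand.
P4HA1: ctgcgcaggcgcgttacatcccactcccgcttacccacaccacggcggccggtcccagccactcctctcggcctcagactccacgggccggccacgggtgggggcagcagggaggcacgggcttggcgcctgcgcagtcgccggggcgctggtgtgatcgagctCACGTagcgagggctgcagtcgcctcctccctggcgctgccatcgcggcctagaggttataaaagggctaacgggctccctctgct
BNIP3: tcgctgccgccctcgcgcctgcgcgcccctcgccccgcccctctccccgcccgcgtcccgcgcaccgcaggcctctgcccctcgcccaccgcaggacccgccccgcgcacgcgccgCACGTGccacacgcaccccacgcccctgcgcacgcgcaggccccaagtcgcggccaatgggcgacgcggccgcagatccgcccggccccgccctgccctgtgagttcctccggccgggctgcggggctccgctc
Of 26 listed hypoxia and glycolysis genes with a window, 57.7% held ACGTG, against 18.7% of all windows. Among all genes that rose and led at 100 µM the share was 24.5% of 466 windows, and among those that fell and led it was 23.3% of 450. Shared genes that fell held ACGTG in 27.1% of 557 windows, and the YAP and TAZ list in 47.4% of 19. Over all measured genes with a window the share was 21.1%.

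Genes linked to FOXO factors and quiescence also mostly rose at 100 µM. Of 18, 13 rose at 100 µM and 4 at 48 h with no faller in either, and the difference was higher in 6. The mean of the 48 h controls was higher than that of the 24 h controls in 16 of the 18, against 14 of the 30 hypoxia and glycolysis genes. The median level of the FOXO list was 7.92 at 100 µM, 7.19 in the 24 h controls, 7.82 at 30 µM and 7.66 in the 48 h controls. TSC22D3, a glucocorticoid- and FOXO-induced leucine zipper protein, read 9.20, 9.01, 9.27 and 9.16 in the 100 µM arrays and 6.73, 6.52, 6.95 and 7.11 in the 24 h controls. It read 8.30, 8.92, 8.82 and 8.45 with 30 µM at 48 h and 6.97, 8.04, 8.18 and 8.07 in the 48 h controls. Treated arrays exceeded their controls at both times, and 3 of 4 controls at 48 h lay above all controls at 24 h. The effects were 2.33 and 0.80, with a difference of 1.53 (adjusted p = 6.32e-05). CCNG2, a cyclin that restrains the cycle, rose by 1.44 at 100 µM and was at 0.32 at 48 h (difference 1.11, adjusted p = 0.00338). Without 48 h replicate 2 the FOXO list had 11 higher differences, and 2 of its genes rose and 1 fell at 48 h.

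DDIT4, an inhibitor of mTORC1, read 9.67, 10.04, 9.93 and 9.93 in the 100 µM arrays and 7.18, 7.49, 8.02 and 8.60 in the 24 h controls. At 48 h it read 8.74, 10.50, 10.04 and 9.48 with 30 µM and 7.45, 9.93, 9.90 and 10.03 in controls. In 3 of the 4 controls at 48 h the level thus lay at that of the 100 µM arrays, while replicate 1 lay within the range of the 24 h controls. DDIT4 rose by 2.07 at 100 µM and was at 0.36 at 48 h (adjusted p = 0.348). The difference of 1.71 (adjusted p = 0.00122) did not pass without the pairing (adjusted p = 0.102). TCP11L2, a gene of unsettled function, had the highest difference of all, 2.52 (adjusted p = 0.00371), but its 48 h pairs ran from −1.21 to 2.55, and it did not pass in a fit of lot II alone. VLDLR, a lipoprotein receptor, rose by 2.01 at 100 µM and was at 0.41 at 48 h. Its 48 h controls read 6.23, 7.79, 7.85 and 7.96, against 6.13, 6.17, 6.43 and 6.83 at 24 h. Here too replicate 1 was the 48 h control within the range of the 24 h controls.

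Such a gap between the controls was common among genes that led at 100 µM. In 483 of the 555 that rose there, the mean of the 48 h controls was higher than that of the 24 h controls, and in 549 of the 609 that fell it was lower, against 9732 and 8685 of all 18417 genes. The classes were formed with these same arrays, so that the counts describe them and test nothing. Among the shared genes the split was 249 of 492 for risers and 345 of 665 for fallers.

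The gap between the controls was wide in small nucleolar RNAs (snoRNAs), which guide chemical modification of ribosomal RNA and are mostly cut from introns of other genes. Box C/D snoRNAs guide methylation and box H/ACA snoRNAs guide pseudouridylation. Of 112 box C/D snoRNAs, 57 fell and 1 rose at 100 µM, 2 fell at 48 h, and 46 had a lower difference. Of 61 box H/ACA snoRNAs, 34 fell and 1 rose at 100 µM, none passed at 48 h, and 23 had a lower and 1 a higher difference. SNORD82 read 4.93, 4.54, 5.13 and 4.66 in the 100 µM arrays and 7.23, 6.85, 7.41 and 6.48 in the 24 h controls. It read 4.81, 5.02, 4.52 and 4.97 with 30 µM at 48 h and 5.28, 5.29, 4.60 and 4.61 in the 48 h controls. The 24 h controls alone were high, and the 48 h controls overlapped the 100 µM arrays. The effects were −2.18 and −0.11, with a difference of −2.06 (adjusted p = 3.77e-06).

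SNORD12C likewise read 7.47, 6.70, 6.76 and 6.18 at 100 µM and 9.11, 8.92, 8.79 and 8.50 in the 24 h controls, against 7.21, 6.83, 6.20 and 6.89 at 30 µM and 7.63, 6.79, 6.28 and 6.36 in the 48 h controls. SNORA74A, of the H/ACA class, fell by 1.94 at 100 µM and was at −0.10 at 48 h. All 4 controls at 48 h lay below all 4 at 24 h in 43.8% of all box C/D and 42.6% of all box H/ACA snoRNAs, against 4.7% of all genes. Among the 69 snoRNAs with a lower difference, a value that uses these same controls, the median level was 6.94 at 100 µM, 8.21 in the 24 h controls, 6.97 at 30 µM and 7.01 in the 48 h controls. A lower difference in these genes thus stands beside 48 h controls that were low without treatment. The sources used here do not say whether the 24 h and 48 h arrays were processed together, so time in culture and array processing cannot be told apart in this gap. Without the pairing 36 box C/D and 18 box H/ACA snoRNAs had a lower difference.

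SnoRNAs were also set beside the genes that span them, a comparison added after the snoRNA values had been seen. In all, 82 snoRNAs lay by position within a measured gene, 62 distinct genes. Strand was not compared, so a spanning gene need not be the host transcript. At 100 µM 51 of the 82 snoRNAs and 34 of the 62 spanning genes fell. The difference was lower in 38 of the snoRNAs and in 12 of the spanning genes, with medians of −0.51 and −0.14, and these gaps were not tested. SNORD82 lies within NCL, the nucleolar protein nucleolin, which fell by 0.39 at 100 µM and by 0.22 at 48 h. SNORD12C lies within ZFAS1, a noncoding RNA, which fell by 0.28, and SNORD14E lies within HSPA8, a chaperone, which fell by 0.32.

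**Figure D4:**
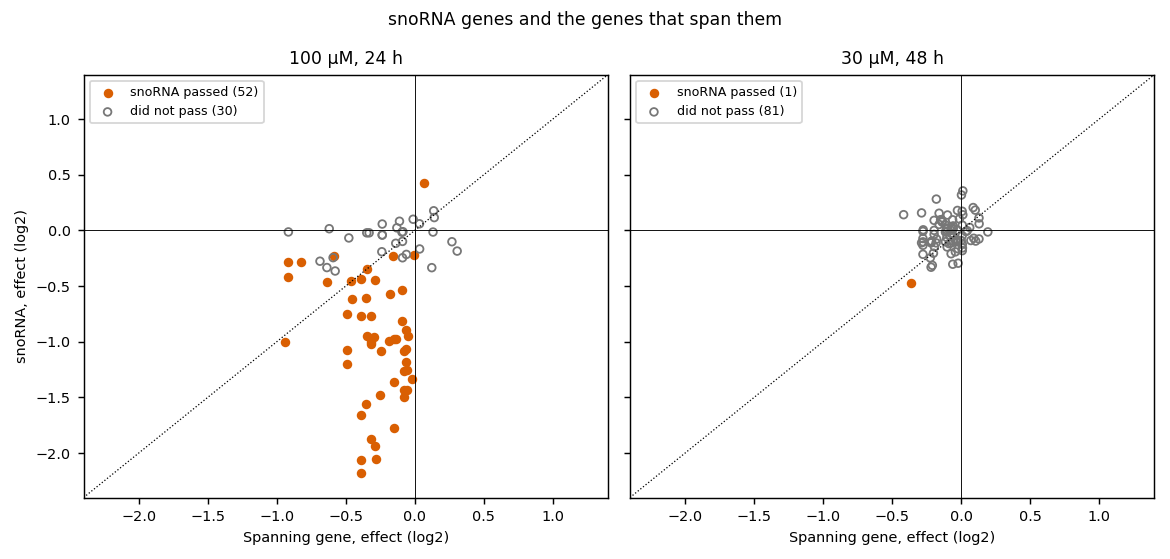
Effect on each snoRNA (vertical axis, log2) against the effect on the gene that spans it (horizontal axis, log2), for 82 snoRNAs within a measured gene, at 100 µM for 24 h (left) and 30 µM for 48 h (right); filled points are snoRNAs with an adjusted p under 0.05, and the dotted line marks equal effects. At 100 µM many points lie far below the dotted line, and at 48 h the points gather around 0.

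MYC fell in both exposures, and 30 of 31 ribosome biogenesis genes fell at 100 µM against 13 at 48 h. MYC, a transcription factor that drives growth and ribosome synthesis, read 8.95, 9.01, 8.91 and 8.81 in the 100 µM arrays and 10.53, 10.62, 10.56 and 10.58 in the 24 h controls. It read 9.99, 10.39, 10.41 and 10.26 with 30 µM at 48 h and 10.54, 10.85, 11.02 and 10.98 in the 48 h controls. All treated arrays lay below their controls. The effects were −1.65 ± 0.10 and −0.59 ± 0.10, and the difference of −1.06 had an interval from −1.36 to −0.77 (adjusted p = 7.61e-05). No ribosome biogenesis gene rose in either exposure, and 18 had a lower difference, or 14 without 48 h replicate 2 and 10 without the pairing, where 3 fell at 48 h. DKC1, the pseudouridine synthase of H/ACA particles, fell by 1.09 and 0.36 (difference −0.72, adjusted p = 0.000138). BYSL, a factor of the small subunit, fell by 0.88 at 100 µM and was at −0.21 at 48 h. In the wider list of 13 MYC and MAX network genes, 4 rose and 2 fell at 100 µM, and 1 fell at 48 h. MXD1 and MXD4, which oppose MYC, rose by 0.83 and 0.70 at 100 µM. Of 65 ribosomal protein genes, 25 fell and 1 rose at 100 µM, 3 fell at 48 h (9 without 48 h replicate 2), and 2 had a lower difference, among them RPL32 (−0.96, adjusted p = 0.000324).

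Counts of cell cycle genes varied with the arrays used. Of 37 genes of G1/S and DNA replication, 31 fell at 100 µM, 2 fell at 48 h, none rose, and 9 had a lower difference. That count was 0 with lot II alone, 3 without the pairing, 2, 3 and 3 without 100 µM replicates 2, 3 and 4, 5 without 48 h replicate 1 and 1 without 48 h replicate 3 or 4. Their median at 48 h was −1.02 in replicate 2, against −0.12, 0.12 and 0.25 in replicates 1, 3 and 4. Without that replicate 3 rose and 1 fell at 48 h, and the difference was lower in 36 of 37, with a median of −0.69. CDC6, a loader of the replication helicase, fell by 1.01 at 100 µM. Its 48 h pairs were −0.01, −1.12, 0.33 and 0.41, and its difference was −0.91, or −1.25 without replicate 2. Of 32 genes of G2/M and mitosis, 9 fell and 1 rose at 100 µM, 12 fell at 48 h and no difference passed. Their median at 48 h was −1.77 in replicate 2, against −0.26, −0.01 and 0.13 in replicates 1, 3 and 4. Without replicate 2, 4 fell and 2 rose at 48 h, and 10 differences were lower. The 48 h controls lay below the 24 h controls in 35 of the 37 G1/S genes and in 30 of the 32 G2/M genes, by their means. CCNB1, the mitotic cyclin, fell by 0.35 and 0.54, and at 48 h by 0.26 without replicate 2. Of 16 CDK inhibitor and p53 target genes, 8 rose and 2 fell at 100 µM and 1 fell at 48 h, with 4 higher differences. CDKN1B, the inhibitor p27, rose by 0.44 at 100 µM and was at −0.02 at 48 h (difference 0.46, adjusted p = 0.0136, or 0.194 without the pairing).

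**Figure D5:**
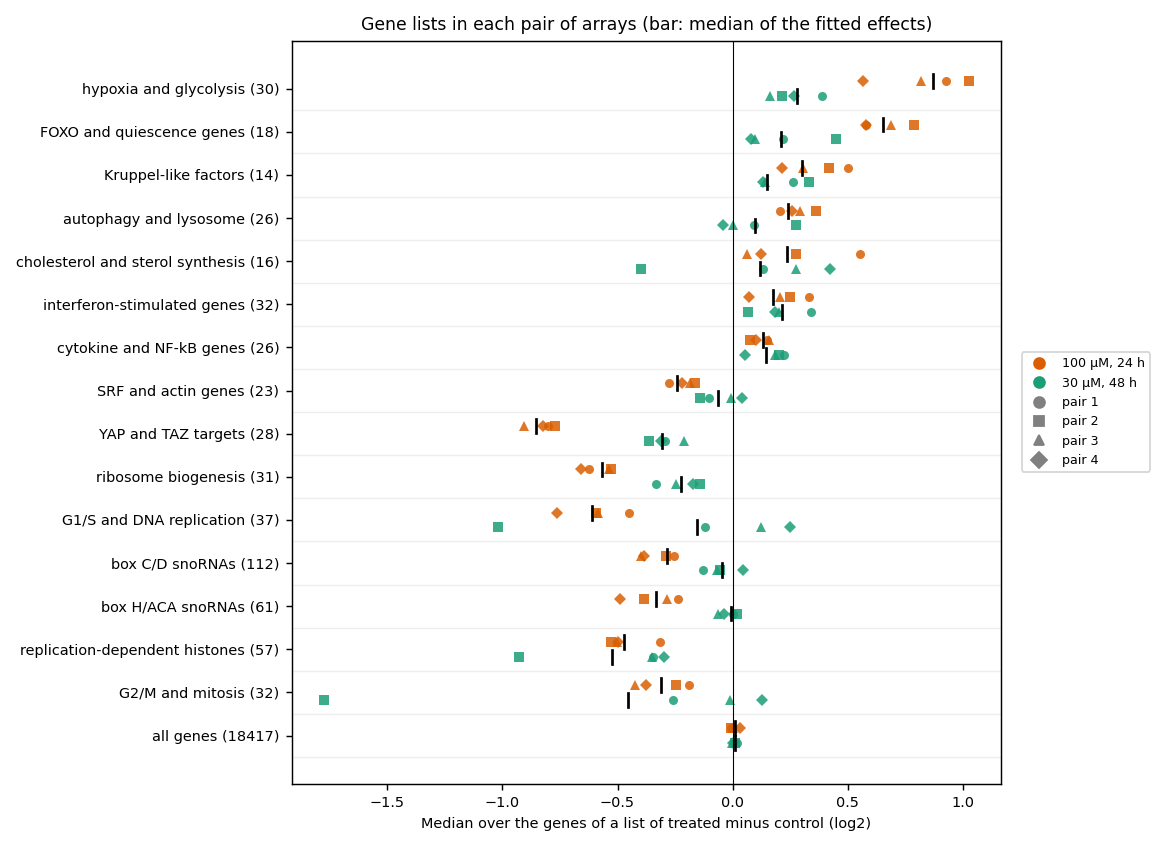
Median of treated minus control (log2, horizontal axis) over the genes of 15 lists and over all genes, in each of the 4 pairs of arrays of the 100 µM, 24 h exposure (orange) and of the 30 µM, 48 h exposure (green); the bar is the median of the fitted effects and the number of genes is in brackets. Hypoxia, YAP and TAZ and ribosome biogenesis medians of the exposures do not overlap, while the 48 h pair 2 lies far left of the others for histones, G1/S and G2/M genes.

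Markers of epithelial and mesenchymal identity were called in part. Of 15 luminal breast markers, 7 rose at 100 µM and 3 at 48 h, none fell, and 2 had a higher difference. Over all genes 15.3% rose at 100 µM, 3.16% rose at 48 h and 3.91% had a higher difference. SPDEF, an ETS factor of secretory epithelium, read 9.03, 8.76, 8.73 and 8.65 at 100 µM and 6.56, 6.62, 6.40 and 6.66 in the 24 h controls. It read 7.69, 6.88, 7.30 and 7.28 at 30 µM and 6.55, 6.70, 6.72 and 6.91 in the 48 h controls, where the lowest treated array lay below the highest control. Its difference was 1.66 (adjusted p = 0.00208). KRT19, a keratin of simple epithelia, rose by 1.55 and 0.50, and the difference of 1.05 passed (adjusted p = 0.00432). ELF3, another epithelial ETS factor, rose by 2.40 and 0.84 (difference 1.55, adjusted p = 6.98e-05). ESR1, PGR, GATA3 and FOXA1 passed in neither exposure.

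Of 10 markers of the mesenchymal line, 4 fell and 2 rose at 100 µM and 3 fell at 48 h, with 3 lower and 1 higher difference. Without the pairing none had a called difference or fell at 48 h. SNAI2, the repressor Slug, fell by 1.49 and 0.39, and its difference of −1.1 passed (adjusted p = 6.44e-05), though not without the pairing (adjusted p = 0.0825). VIM and CD44, defining genes of the line, passed in neither. Among integrin and laminin subunits 15 of 27 rose and 2 fell at 100 µM, and 8 rose and 1 fell at 48 h, while 2 differences were higher and 2 lower, or 6 and 1 without 48 h replicate 2. ITGB4, which anchors cells to laminin, read 9.26, 8.84, 8.66 and 8.83 at 100 µM, against 6.29, 6.27, 6.41 and 6.32 in the 24 h controls. It read 7.84, 7.36, 7.47 and 7.09 at 30 µM, against 6.39, 6.47, 6.66 and 6.64 in the 48 h controls, so that treated arrays exceeded controls throughout. ITGB4 rose by 2.58 and 0.90, and its difference of 1.67 passed (interval 1.07 to 2.28, adjusted p = 0.000963). Of 33 collagen and matrix genes, 12 rose and 4 fell at 100 µM, 8 rose and 2 fell at 48 h, and 2 differences were higher and 3 lower. Over all genes 15.3% rose and 16.6% fell at 100 µM, 3.16% rose and 4.43% fell at 48 h, and 8.23% had a difference in either direction.

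Among markers of other cells, 3 of 11 blood markers rose at 100 µM and 1 at 48 h, against 15.3% and 3.16% of all genes. CD68, bright in all groups, rose by 0.56 at 100 µM (adjusted p = 9.26e-05) and was at 0.21 at 48 h. LYZ, the lysozyme gene, rose by 1.93 and 0.74 with a difference of 1.19 (adjusted p = 0.00482), at a mean level of 5.88 in the 100 µM arrays. Of the 13 fibroblast and endothelial markers 3 rose and 1 fell at 100 µM and 1 rose at 48 h. PECAM1, an adhesion molecule of endothelium, rose by 1.30 and 0.59. The part of other cells in these values was not tested.

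Genes of sterol synthesis, sterol uptake and prenylation are set against the background of 3.91% higher and 4.32% lower differences over all genes. Of 16 genes of cholesterol and sterol synthesis, 7 rose at 100 µM, 2 rose at 48 h, none fell, and 2 had a higher difference. HMGCS1, an early enzyme of the mevalonate pathway, rose by 0.82 and 0.60, with a difference of 0.22 (interval −0.26 to 0.70). Without 48 h replicate 2 its 48 h effect was 0.93 and its difference −0.11. FDPS, the target of the drug, was at −0.08 and 0.10 and passed in neither. Its difference of −0.18 passed only without 48 h replicate 2 (−0.40, adjusted p = 0.00446) or with weighted arrays. LSS, which closes the sterol ring, rose by 0.63 and 0.23 (difference 0.40, adjusted p = 0.00909, or 0.299 without the pairing). In 48 h replicate 2 the median of the sterol synthesis list was −0.40, against 0.13 to 0.42 in the other pairs. Without that replicate 5 of its genes rose and none fell at 48 h, and 2 differences were higher and 3 lower. The median difference was 0.12 with it and −0.06 without it. Of 17 genes of sterol uptake and SREBP action, 10 rose and 1 fell at 100 µM and 3 rose at 48 h, with 4 higher differences. Without 48 h replicate 2, 7 rose at 48 h, with 5 higher differences and 1 lower. Without the pairing 1 rose at 48 h and 1 difference was higher. INSIG2, which holds SREBP back, rose by 0.91 at 100 µM and was at 0.17 at 48 h (difference 0.75, adjusted p = 1.89e-05). Of 13 prenylation enzymes, 6 fell and 2 rose at 100 µM and 2 fell at 48 h, and 3 differences were lower and 1 higher. Without 48 h replicate 2, none fell and 1 rose at 48 h, and 5 differences were lower and 2 higher. The higher one in the full fit was that of RABGGTA (0.29, adjusted p = 0.0375). With lot II alone or without the pairing no prenylation enzyme had a called difference, and without the pairing none fell at 48 h. RABGGTB, the other subunit of the same Rab-prenylating enzyme, fell by 0.49 at 100 µM and had a difference of −0.42 (adjusted p = 0.00223).

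Signalling and degradation genes were called as follows, against 8.23% of all genes with a difference in either direction. Of 26 cytokine and NF-κB genes, 8 rose and 3 fell at 100 µM and 6 rose and 1 fell at 48 h, with 1 higher difference, that of IL24. CSF1, a growth factor of macrophages and osteoclasts, rose by 1.58 and 0.94 (difference 0.64, adjusted p = 0.0747). Of 32 interferon-stimulated genes, 14 rose and 2 fell at 100 µM, 9 rose at 48 h (1 without the pairing), and 3 differences were higher and 1 lower, with medians of 0.17 and 0.21. GBP2, a guanylate-binding protein, rose by 1.47 and 0.76 (difference 0.71, adjusted p = 0.0385). Of 18 ERK feedback genes, 10 rose and 3 fell at 100 µM and 7 rose at 48 h, and 3 differences were higher and 2 lower. Autophagy and lysosome genes passed mostly at 100 µM: 14 of 26 rose and 2 fell there, 1 rose at 48 h and 6 differences were higher, or 12 without 48 h replicate 2. GABARAPL1, which coats autophagosomes, rose by 0.90 at 100 µM and was at 0.04 at 48 h (difference 0.86, adjusted p = 0.000118).

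The 31 genes that passed at 48 h and in the difference but not at 100 µM numbered 15 that rose and 16 that fell. Without the pairing the class held 3 genes, and without 48 h replicate 2 the class held 206. IL24, a cytokine of the IL-10 family, read 5.95, 6.03, 6.0 and 6.01 in the 100 µM arrays and 6.05, 6.13, 6.34 and 6.51 in the 24 h controls. It read 5.85, 6.92, 7.05 and 6.56 with 30 µM at 48 h and 6.30, 7.48, 8.41 and 8.18 in the 48 h controls. The 48 h controls were the high group, except for replicate 1, and the 30 µM arrays were lower than their own controls in every pair. The effects were −0.26 (adjusted p = 0.213) and −1.0 (adjusted p = 0.000391), with a difference of 0.74 (adjusted p = 0.0326). Without the pairing the difference did not pass (adjusted p = 0.333), nor did it without any 1 of 100 µM replicates 1, 2 and 3 or of 48 h replicates 3 and 4, with values between 0.53 and 0.76.

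SLC7A11, the cystine transporter, fell by 0.37 at 48 h and was at 0.08 at 100 µM, with a difference of 0.44 (adjusted p = 0.0326) that did not pass without the pairing (adjusted p = 0.464). Its 48 h pairs were −0.20, −0.16, −0.20 and −0.90, and without replicate 4 the difference was 0.27 (adjusted p = 0.137). It also did not pass without any 1 of 100 µM replicates 1, 2 and 3. LINC00467, a noncoding RNA, was the named gene of this class whose difference passed under all 16 alternatives. It read 6.81, 6.64, 6.79 and 6.71 at 100 µM and 6.57, 6.64, 6.67 and 6.78 in the 24 h controls. It read 6.49, 6.44, 6.81 and 6.44 at 30 µM and 6.95, 7.03, 7.09 and 7.11 in the 48 h controls. The 30 µM arrays lay below all their controls, while the groups at 24 h overlapped. It fell by 0.50 at 48 h and was at 0.07 at 100 µM, and the difference was 0.57 (interval 0.30 to 0.84, adjusted p = 0.0085). Of the risers, HOXB6, a homeobox gene, rose by 0.33 at 48 h and was at −0.17 at 100 µM (difference −0.50, adjusted p = 0.00915, or 0.262 without the pairing). AOC3, an amine oxidase, had a difference of −0.77 on the probe set used and of −0.10 on its other one. JUN, an AP-1 subunit, fell by 0.24 at 48 h and was at 0.05 at 100 µM (difference 0.29, adjusted p = 0.0485, or 0.624 without the pairing).

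MMP1, the interstitial collagenase, was the shared riser with a called difference that rose further at 48 h. It read 8.67, 9.26, 9.09 and 9.33 at 100 µM and 8.29, 8.94, 8.88 and 9.35 in the 24 h controls, which overlapped. It read 9.02, 9.30, 9.37 and 9.38 at 30 µM and 8.44, 8.42, 8.43 and 8.69 in the 48 h controls, which did not. The effects were 0.22 (adjusted p = 0.0313) and 0.77 (adjusted p = 5.15e-06), and the difference of −0.55 passed (interval −0.78 to −0.32, adjusted p = 0.0037). Without the pairing it did not pass (adjusted p = 0.744). In its list of 24 metalloproteinase and plasminogen genes, 9 rose and 3 fell at 100 µM, 5 rose and 1 fell at 48 h and 3 differences were lower. PLAU, the urokinase protease, fell by 0.68 at 100 µM and was at −0.13 at 48 h (difference −0.54, adjusted p = 0.0413, or 0.19 without the pairing). Without the pairing no gene of this list had a called difference and 1 rose at 48 h.

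Opposite signs were called in 4 genes, of which all but SOD2 were higher at 100 µM. The count was 42 without 48 h replicate 2, 18 with array weights and 0 without the pairing. SOD2, the mitochondrial superoxide dismutase, read 9.40, 9.12, 9.07 and 9.14 at 100 µM and 9.51, 9.36, 9.41 and 9.32 in the 24 h controls. It read 9.33, 9.92, 9.35 and 9.32 at 30 µM and 9.20, 9.25, 9.08 and 9.27 in the 48 h controls, where replicate 2 with 30 µM was the highest. It fell by 0.22 at 100 µM and rose by 0.28 at 48 h, and without replicate 2 the 48 h effect was 0.15 (adjusted p = 0.236). DCTN4, a dynactin subunit, rose by 0.27 at 100 µM and fell by 0.26 at 48 h, with a difference of 0.54 that passed under all 16 alternatives. NIT1, an amidase, rose by 0.27 and fell by 0.24, with a difference of 0.51, and SCARNA10, a small RNA of the Cajal body, rose by 0.49 and fell by 0.40, with a difference of 0.88. Without the pairing the differences of SOD2, NIT1 and SCARNA10 did not pass, with adjusted p of 0.14, 0.0892 and 0.242.

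The remaining lists are given by their counts. Over all genes 15.3% rose and 16.6% fell at 100 µM, and 3.16% rose and 4.43% fell at 48 h. A difference passed in 8.23% of all genes, higher in 3.91% and lower in 4.32%. Of 27 genes of the integrated stress and unfolded protein responses, 9 fell and 2 rose at 100 µM and 3 fell at 48 h, or 9 without 48 h replicate 2, with 3 higher and 3 lower differences. The median of the 48 h control mean minus the 24 h control mean was 0.62 over these genes. The 48 h controls were not alike here: their medians over the list ran from 8.92 to 10.28, against 8.97 to 9.02 in the 24 h controls. Of 20 NRF2 and oxidative stress genes, 7 rose and 2 fell at 100 µM and 2 rose and 1 fell at 48 h, with 5 higher differences and 1 lower. AKR1C1, a ketosteroid reductase, rose by 2.12 and 0.88 (difference 1.24, adjusted p = 0.0102), and its other probe set gave 0.59. Of 19 AP-1 and immediate early genes, 6 rose and 3 fell at 100 µM and 2 rose and 3 fell at 48 h. Of 19 circadian clock genes, 7 rose and 2 fell at 100 µM and 1 rose and 1 fell at 48 h. Of 23 genes of the BCL2 family and caspases, 4 rose and 5 fell at 100 µM and 1 fell at 48 h. Of 16 mediators of bone metastasis, 5 rose and 5 fell at 100 µM and 4 rose at 48 h, with 4 lower differences and 1 higher. Of 32 respiratory chain genes, 1 rose and 7 fell at 100 µM and 1 fell at 48 h. Without the pairing, 1 of the 18 ERK feedback genes rose at 48 h, 5 of the 32 G2/M genes fell at 48 h and 1 of the 26 autophagy genes had a higher difference. Of 8 genes of LXR action and cholesterol efflux, 1 rose and 1 fell at 100 µM and 1 rose at 48 h.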

How the data were processed

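The series measured total RNA of MDA-MB-231 cells on 40 arrays, and the 16 arrays of lot II were compared here. The authors deposited log2 signals made by RMA in Affymetrix Power Tools 1.10.2, per the submitters' processing notes. Whether both lots were normalized together is not given in the sources used here, and background correction and quantile normalization of this kind can compress differences. Of 33297 probe sets, 19460 had exactly 1 symbol in the platform annotation, 1754 had several and 12083 stayed unnamed. Where a gene had several, the probe set with the highest mean was kept, which gave 18417 genes, 769 of them with more than 1. No dim gene was removed. The array medians of lot II lay between 6.25 and 6.33. The number of arrays limits the precision.

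The model, run with lmFit and eBayes of limma 3.58.1 under R 4.3.3, took in all 40 arrays, and had a block for each lot, time and replicate number and 6 treated effects. P-values were adjusted by Benjamini-Hochberg at 0.05. The pairing comes from the design text. Same-numbered treated and control arrays deviated together with r between −0.09 and 0.26 at 100 µM and between −0.30 and 0.55 at 48 h. On simulated data with 18417 genes, the difference was recovered in 41% of 100 genes changed by 0.5 and in 95% of 100 changed by 1 (log2). There were 7 false calls. The simulation gave each gene independent normal noise of equal spread in all arrays and changed the 100 µM arrays only. It held no deviant pair such as 48 h replicate 2, so these shares need not hold for the measured arrays. The members and gene lists were chosen with earlier results of these data known. Named genes were the largest differences with non-overlapping pairs, the largest of each class, the opposite genes, list members with the smallest p, list members that went against a list's name, and a fixed set; members printed with a list's counts beyond these were picked once their values were known. The other fits used no block, lot II alone, median centring, new quantile normalization, removal of the dimmest 33%, the mean over probe sets, weights for arrays, a trend with intensity, or left out each replicate in turn. Promoter windows came from RefSeq (GRCh38.p14). A gene list is not reported here.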

Additional observations from a re-analysis of the deposited data

Results flagged for a closer look

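In 186 groups of 4 pair differences, 16 had a highest or lowest value far from the others, where chance gives about 5%. At 100 µM, replicate 1 was the far value for ANKRD1 (−2.02), CCN1 (−2.88) and CDKN1A (0.99) and for the medians of BCL2 family and caspase genes (0.078) and histones (−0.315). Replicate 4 was far for SNORD82 (−1.82) and for the median of prenylation enzymes (−0.277).

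At 48 h, replicate 2 was far for CCNB1 (−1.37), H2BC14 (−3.0), H2BC3 (−2.83), H4C2 (−1.80) and KLF2 (0.11), and for the medians of histones (−0.93) and ribosomal proteins (0.127). Replicate 4 was far for SLC7A11 (−0.90) and replicate 1 for the median of luminal markers (0.088).

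Effects of opposite sign, with a tested difference, were found for DCTN4 (0.54), NIT1 (0.51), SCARNA10 (0.88) and SOD2 (−0.50). Outside the named genes, the difference passed in 134 of 13837 probe sets without exactly 1 symbol (0.968%), 28 of them higher and 106 lower.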

How the results depend on the processing

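Without the replicate block, positive differences numbered 225, negative 289, 48 h calls 349, shared genes 305, genes leading at 100 µM 446, genes leading at 48 h 3 and opposite genes 0 (main values 720, 795, 1397, 1157, 1164, 31 and 4). With lot II alone these were 235, 281, 370, 333, 413, 4 and 1. Array weights gave 1522 positive and 1396 negative differences, 2212 and 117 leading genes and 18 opposite ones. Opposite genes numbered 2 after new quantile normalization and 8 with an intensity trend. The cause was not tested.

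Leaving out 1 replicate gave 316 to 1299 positive and 476 to 1401 negative differences, 4875 to 6367 calls at 100 µM, 485 to 1672 at 48 h, 405 to 1378 shared genes, 624 to 2073 leading at 100 µM, 12 to 206 leading at 48 h and 1 to 42 opposite. The lowest counts came without 100 µM replicate 2 (positive), 48 h replicate 4 (negative, leading at 100 µM) and 48 h replicate 1 (48 h calls, shared).

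Without 100 µM replicates 1 and 3 and 48 h replicates 3 and 4, positive differences numbered 474, 461, 370 and 368. Differences that changed sign had passed in none of these fits. With array weights they were CCNB1 (−0.007), H2BC3 (−0.016) and HMGCS1 (−0.001). Leaving out 1 replicate gave −0.089 to 0.306 for CCNB1, −0.119 to 0.704 for H2AC4, −0.035 to 0.487 for H2BC14, −0.199 to 0.492 for H2BC3, −0.532 to 0.115 for H3C12, −0.11 to 0.452 for HMGCS1, −0.079 to 0.098 for SEMA3E and −0.054 to 0.245 for TNFSF15. ITGA10 passed with median centring, new quantile normalization, dim genes removed, an intensity trend and array weights. Of 39 named genes with a called difference, 23 kept it without the block, and 19 under all 16 alternatives.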
